A study of Mus musculus with 19 samples.

Results

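Mammary tumours that were called responders after chemotherapy were set against untreated tumours of the same mouse model. The members were the 3 arrays whose titles end in Responder, excluding Non-responder, and the 7 arrays with untreated in the title, 10 of 19 arrays in all. Each array held RNA of 1 tumour. All animals were FVB mice with a transgene, in which the C3(1) rat promoter drives Simian virus 40 T antigen, and the labels call the tissue mammary adenocarcinoma. Responder 1 came from a mouse given carboplatin and paclitaxel for 2 weeks, and responders 2 and 3 from mice given both drugs for 3 weeks. The 7 untreated tumours carry the transgene too and received no drug according to their labels, and whether any vehicle was given is not stated. The other 9 arrays hold treated tumours called non-responders. They entered the fit as a further group, so that the spread between tumours was estimated from all 19 arrays.

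Some features of the design limit what the 10 arrays can show. Responder 3 came from the same mouse as non-responder 1, so drug exposure was shared while the call was not. The sources used here do not say how a response was judged, nor the age or date of harvest. Mouse numbers in the titles were higher for all 3 responders than for the 7 untreated tumours. The 3 responders and untreated tumours 1 and 2 have titles with a hyphen before the mouse number, and untreated tumours 3 to 7 have the other separator there. What this title style follows is not stated, so differences and list medians that move by over 1.5 times against the 2 untreated tumours of the same style are also given that way. Levels below are log2 ratios, likely tumour over a common whole-mouse reference RNA, and differences are responder mean minus untreated mean of these ratios, with the standard error of the fit. Base and direction of the log ratio are not stated by the submitters, so with the ratio turned every sign given here would turn. The median difference over all 18553 genes tested was 0.01.

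The C3(1) promoter, from a rat prostate gene, drives the viral antigen in mammary epithelium of female mice. Large T antigen binds p53 and the retinoblastoma family, which removes restraints on entry into the cell cycle. Carboplatin forms platinum crosslinks in DNA, and paclitaxel holds microtubules in their polymerised form so that cells stall in mitosis. Tumours of this model are known as basal-like, with low levels of hormone receptors. Checked against defining markers, epithelial identity was present in both groups. The epithelial adhesion gene Epcam stood at 2.30, 2.23 and 2.19 in responders 1, 2 and 3, and its lowest, median and highest untreated values were 2.04, 2.37 and 3.03. The simple-epithelium keratin gene Krt8 stood at 2.05, 1.42 and 1.73 in responders and between 0.58 and 2.01 in untreated tumours.

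Promoters of 3 genes that the results return to are shown here, from 250 bases before to 50 bases after the transcription start. They are RefSeq sequences of build GRCm38.p6, on the minus strand, 5′ to 3′, with the motifs named next in capitals. Ctsd encodes the lysosomal protease cathepsin D, and CACGTG is the E-box form found before many lysosomal genes. Bub1 encodes a kinase of the mitotic checkpoint, and CCAAT is the box bound by nuclear factor Y. Pola1 encodes the catalytic subunit of DNA polymerase alpha, and TTTGGCGC or TTTCGCGC was searched as the E2F site. Of these 300-base windows, Ctsd lies at chr7:142387778-142388077, Bub1 at chr2:127831810-127832109 and Pola1 at chrX:93632106-93632405.
Ctsd: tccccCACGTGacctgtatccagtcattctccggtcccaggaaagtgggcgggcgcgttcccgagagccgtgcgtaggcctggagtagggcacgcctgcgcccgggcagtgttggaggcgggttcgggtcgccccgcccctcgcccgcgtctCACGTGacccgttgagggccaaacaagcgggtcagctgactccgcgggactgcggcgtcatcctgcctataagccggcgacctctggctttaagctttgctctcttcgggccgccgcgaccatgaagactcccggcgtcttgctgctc
Bub1: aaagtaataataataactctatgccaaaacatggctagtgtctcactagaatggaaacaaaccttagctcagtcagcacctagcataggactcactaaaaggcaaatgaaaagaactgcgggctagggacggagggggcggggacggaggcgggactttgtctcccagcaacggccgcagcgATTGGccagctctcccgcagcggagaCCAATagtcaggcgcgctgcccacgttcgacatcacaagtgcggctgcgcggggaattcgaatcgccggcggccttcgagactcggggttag
Pola1: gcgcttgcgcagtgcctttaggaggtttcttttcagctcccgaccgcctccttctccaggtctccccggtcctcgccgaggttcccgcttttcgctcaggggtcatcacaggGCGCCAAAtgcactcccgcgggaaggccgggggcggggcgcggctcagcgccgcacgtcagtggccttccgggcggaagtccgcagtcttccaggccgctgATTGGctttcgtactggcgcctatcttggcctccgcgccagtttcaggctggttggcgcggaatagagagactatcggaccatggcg

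Both strands were searched, and the motifs in capitals do not overlap each other. Ctsd has CACGTG at 2 places, a motif in 8.09% of the promoters of 27025 genes. Bub1 has CCAAT at 2 places, once on each strand. Pola1 has 1 CCAAT box and 1 E2F site, both read on the opposite strand. CCAAT occurred in 20 of 24 mitosis promoters in the table (83.3%) and in 16 of 25 DNA replication promoters (64.0%), against 41.1% of all. The E2F site occurred in 1 of 24 mitosis promoters (4.17%) and in 9 of 25 replication promoters (36.0%), against 0.929% of all. TTTGAA, the core of the cell cycle homology region, occurred in 17 of 24 mitosis promoters (70.8%) and in 3 of 25 replication promoters (12%), against 20.2% of all, and Bub1 has none in this window. These shares describe sequence only, and whether a factor bound any of them was not measured.

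In responders 14 of 18553 genes passed, 6 higher and 8 lower than in untreated tumours (limma, Benjamini-Hochberg adjusted p under 0.05 over all genes). That is 0.0755% of genes tested, 0.0323% higher and 0.0431% lower. The genes that rose included Ctsd, the actin-binding tropomyosin Tpm1, and the calcium-entry regulator Saraf. Those that fell included Chil3, a secreted chitinase-like protein of mouse macrophages and neutrophils, the mammary luminal transcription factor Elf5, the condensin subunit Smc4 and the ubiquitin ligase Trim33. Of the 14, 12 differed by over 2-fold. At an unadjusted p under 0.05 there were 2995 genes (16.1%), where 928 would be expected with no difference, and 529 genes had an adjusted p between 0.05 and 0.1. In bulk tumours, a change in the share of a cell type and a change of RNA per cell cannot be told apart.

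**Figure D1:**
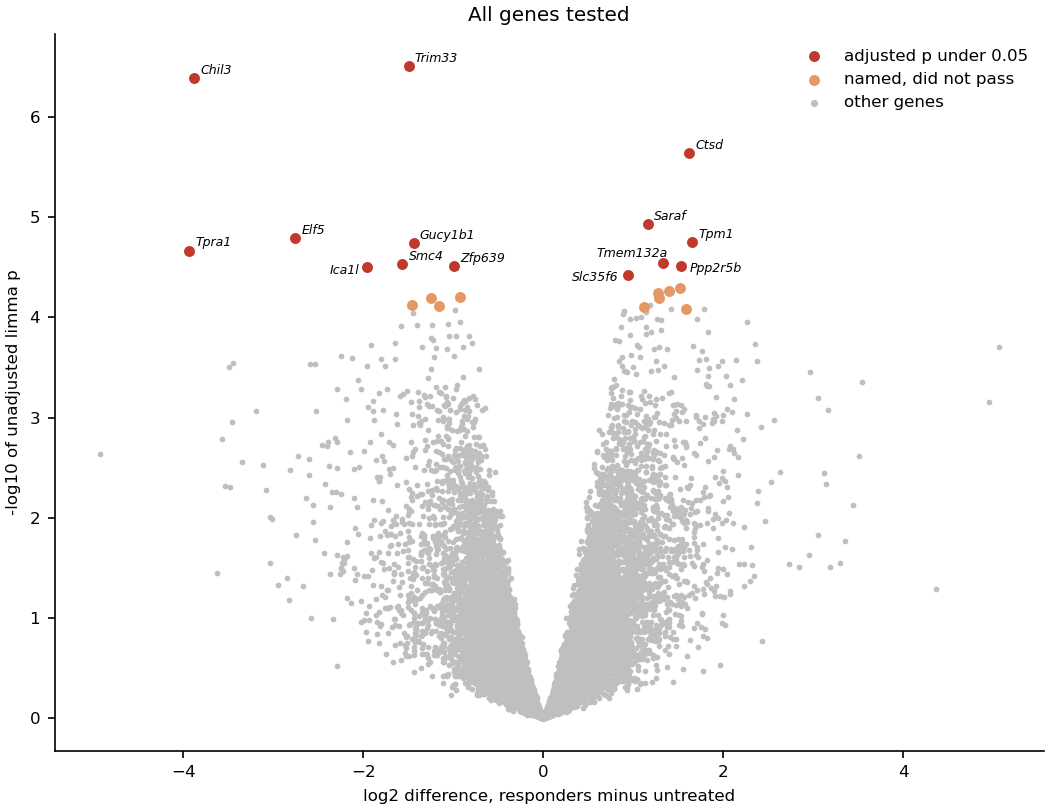
Log2 difference of responders minus untreated tumours (x axis) against −log10 of the unadjusted limma p (y axis), 1 point per gene for 18553 genes. The 14 genes that passed are labelled, with Trim33 and Chil3 highest on the y axis, and the 10 further named genes lie just under them.

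Among the genes higher in responders, Ctsd had the smallest p. Cathepsin D is an aspartic protease of lysosomes, and the promoter printed above belongs to it. It stood at 1.69, 2.41 and 1.53 in responders 1, 2 and 3, against a lowest, median and highest untreated value of -0.15, 0.12 and 0.85. Every responder lay above every untreated tumour, and the difference was 1.62 ± 0.24 (3.07-fold, adjusted p = 0.0143). Its 2 spots differed little, at 1.54 and 1.69.

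Tpm1 encodes tropomyosin 1, which lies along actin filaments in muscle and in other cells. It stood at -1.23, -1.49 and -1.95 in responders 1, 2 and 3, and its lowest, median and highest untreated values were -4.05, -3.40 and -2.36. The difference was 1.66 ± 0.29 (3.15-fold, adjusted p = 0.0454), with its 3 spots between 1.45 and 1.88. Skeletal muscle markers were also higher in 2 of the 3 responders, as given below, and their part in this difference was not tested. Responder 3 had a muscle marker mean of -3.27, inside the untreated range of -4.89 to -2.52, and a Tpm1 level above all 7 untreated tumours. A single tumour and a list mean cannot decide the part of muscle.

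Ppp2r5b, a regulatory subunit of protein phosphatase 2A, stood at -0.09, 0.48 and 0.25 in responders 1, 2 and 3. Its untreated values ran from -1.68 to -1.002 with a median of -1.31, so the groups did not overlap (difference 1.54 ± 0.28, adjusted p = 0.0454). Saraf, a protein of the endoplasmic reticulum membrane that turns down store-operated calcium entry, stood at 0.87, 0.91 and 0.43 in responders. In untreated tumours it ran from -0.82 to -0.12 with a median of -0.41 (difference 1.17 ± 0.20, adjusted p = 0.0454). Again all responders were above all untreated tumours.

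The transmembrane protein gene Tmem132a stood at 0.56, -0.06 and 0.72 in responders 1, 2 and 3. Untreated tumours ran from -1.53 to -0.28 with a median of -0.91 (difference 1.33 ± 0.25, adjusted p = 0.0454). Responder 2 lay only a little above the highest untreated tumour here. The solute carrier gene Slc35f6 stood at 1.24, 1.25 and 1.11 in responders and between 0.01 and 0.64, median 0.24, in untreated tumours. Its difference was 0.95 ± 0.18 (1.93-fold), at the edge of the threshold with an adjusted p of 0.04998, and its 3 spots lay between 0.54 and 1.31.

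Chil3 and Trim33 had the smallest p of all genes. Chil3, also known as Ym1, stood at -2.11, -1.67 and -3.54 in responders 1, 2 and 3, against a lowest, median and highest untreated value of -0.225, 1.67 and 2.39. The lowest untreated tumour, number 5, was still above every responder. Chil3 fell by 3.88 ± 0.52 on the log2 scale (14.7-fold lower, adjusted p = 0.00381). Trim33, also called TIF1 gamma, ubiquitinates Smad4 in transforming growth factor beta signalling. It stood at -0.04, -0.01 and -0.26 in responders and between 0.96 and 1.86, median 1.34, in untreated tumours. It fell by 1.49 ± 0.20 (2.82-fold lower, adjusted p = 0.00381), and the spread was small in both groups, with SDs of 0.13 in responders and 0.27 in untreated tumours (n = 3 and 7).

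Elf5 is an ETS-family factor that specifies secretory luminal cells of the mammary gland. It stood at -0.18, -0.15 and -1.37 in responders 1, 2 and 3, against 1.03, 2.04 and 3.53 as the lowest, median and highest untreated values. All 3 responders lay below all 7 untreated tumours, and Elf5 fell by 2.75 ± 0.48 (6.74-fold lower, adjusted p = 0.0454). Smc4 encodes a core subunit of both condensin complexes, which compact chromosomes in mitosis. It stood at 0.55, 0.87 and 1.03 in responders and between 1.95 and 3.13, median 2.25, in untreated tumours. It fell by 1.56 ± 0.29 (2.96-fold lower, adjusted p = 0.0454), and its 2 spots were close at -1.65 and -1.48.

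Tpra1, a transmembrane protein named for its expression in adipocytes, had the largest difference of the 14. It stood at 0.65, 0.24 and 1.36 in responders 1, 2 and 3, against 3.09, 4.67 and 6.22 as the lowest, median and highest untreated values. It fell by 3.94 ± 0.71 (15.3-fold lower, adjusted p = 0.0454), with 1 spot on the array. Gucy1b1 is the beta subunit of soluble guanylate cyclase, the receptor for nitric oxide. It stood at -2.91, -3.67 and -2.77 in responders and between -1.91 and -1.29, median -1.67, in untreated tumours, and fell by 1.44 ± 0.25 (adjusted p = 0.0454). Its 3 spots were all negative but spread from -2.67 to -0.67.

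Zfp639, a zinc finger gene, stood at -1.28, -1.12 and -1.20 in responders 1, 2 and 3 and between -0.60 and 0.12, median -0.17, in untreated tumours. It fell by 0.99 ± 0.18 (1.99-fold lower, adjusted p = 0.0454), and the responders were close together. Ica1l, a relative of the islet cell autoantigen gene, stood at -0.25, -0.44 and -0.50 in responders and between 0.61 and 2.28, median 1.60, in untreated tumours. Its mean over spots fell by 1.96 ± 0.36 (adjusted p = 0.0454). The call is uncertain, since its 2 spots went in opposite directions, at -4.09 and 0.18.

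**Figure D2:**
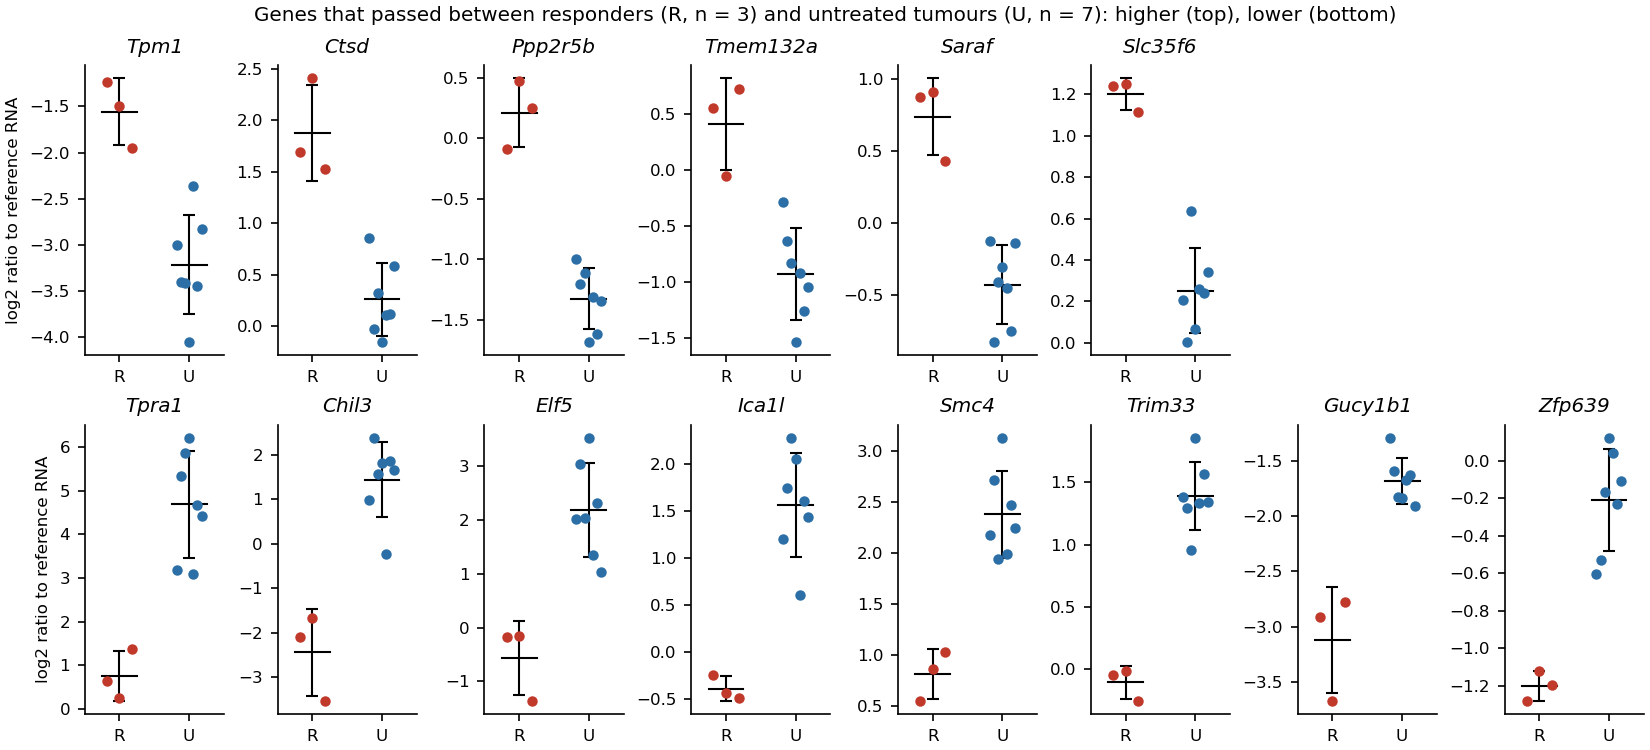
Log2 ratio to reference RNA (y axis, own scale per gene) of the 14 genes that passed, 1 point per tumour, with responders (R, n = 3) left of untreated tumours (U, n = 7), and bars for mean ± SD. In each panel the responder points lie wholly above (top row) or wholly below (bottom row) the untreated points.

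The calls depended on which tumours were in the fit. Chil3 and Trim33 passed in all 10 fits that left out 1 responder or 1 untreated tumour, and Ctsd in 9 of 10 (adjusted p = 0.0592 without responder 2). The other 11 genes passed in 2 to 4 of 10, with adjusted p of up to 0.129. Without untreated tumour 2, 3, 4 or 6, in turn, 3 genes passed each time. Without untreated tumours 1, 5 and 7 there were 396, 11 and 140, and without responders 1, 2 and 3 there were 12, 13 and 7. Of these 3 counts without a responder, 3, 3 and 4 were among the 14. With only the 10 responder and untreated arrays in the fit, 0 genes passed in limma, with 2594 at an unadjusted p under 0.05.

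Against untreated tumours 1 and 2 alone, the 14 differences lay between 0.64 and 4.13 in size. Their sign is fixed there, since the groups of these genes do not overlap, and only the size is informative. Chil3 stood at -4.13, Tpra1 at -3.52, Elf5 at -3.09, Tpm1 at 1.64, Ctsd at 1.47 and Trim33 at -1.44 in that comparison. Tmem132a moved to 0.86, a drop of over 1.5 times, and Zfp639 to -0.64, likewise. In the 7 hyphen-titled arrays 0 genes passed in limma, with 1707 at an unadjusted p under 0.05. Values within the title style below use these 7 arrays, with the spot filter applied to them anew, so the spots behind a gene can differ. With title style as a block over all arrays, Chil3 was the 1 gene that passed (-4.16, adjusted p = 0.0382, 0.00539% of genes), and Trim33 stood at -1.32 with an adjusted p of 0.0575.

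**Figure D3:**
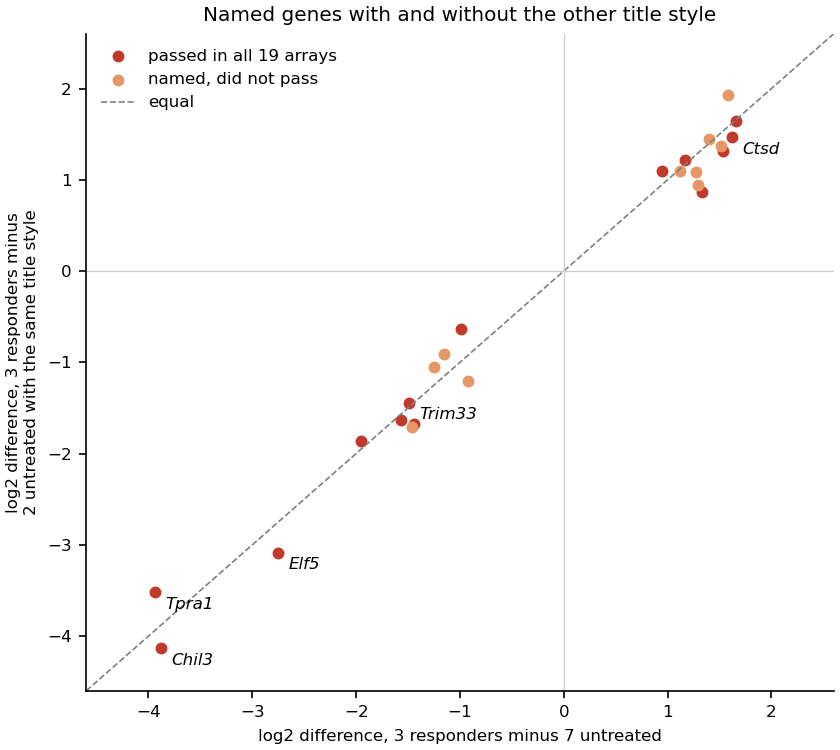
Log2 difference of the 24 named genes against all 7 untreated tumours (x axis) and against the 2 untreated tumours with the same title style as the responders (y axis). Chil3 and Tpra1 lie farthest to the lower left and Tmem132a and Zfp639 are nearer to 0 on the y axis; equal sign on both axes is fixed by the choice of genes without overlap, and the axes share the responders and 2 of the untreated tumours.

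The 10 genes next in p among those named shared an adjusted p of 0.0506 and did not pass. Ajuba, a LIM-domain scaffold of the Hippo pathway, had a difference of 1.52 ± 0.29. It stood at 2.15, 1.12 and 1.41 in responders 1, 2 and 3 and between -0.53 and 0.70 in untreated tumours. Paqr3, a Golgi protein that tethers Raf kinases, differed by 1.40 ± 0.27. It stood at 0.93, 2.48 and 1.65 in responders and between 0.08 and 0.56 in untreated tumours, a narrow untreated range. The ribonuclease gene Ang2, of the mouse angiogenin family, differed by 1.59 ± 0.32, and whether its spot tells apart the similar family members was not tested. Further positive differences were 1.27 ± 0.25 for the mitochondrial nucleoside diphosphate kinase Nme4, 1.29 ± 0.25 for the phosphatidylinositol synthase Cdipt and 1.12 ± 0.22 for the p53-induced gene Ei24. On the negative side stood the purine synthesis enzyme Pfas (-1.46 ± 0.29), the Ikaros-family factor Ikzf4 (-1.25 ± 0.25, with 3 spots from -2.91 to 0.13 and so in opposite directions), the TAK1-binding Tab3 (-1.16 ± 0.23) and the RNA-binding Rbmx (-0.92 ± 0.18). In each of the 10 the groups did not overlap, which their choice by smallest p in these same values makes likely. Over all genes, 3.79% lay wholly above and 3.30% wholly below.

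Over the whole array, 15798 genes were measured on all 10 arrays. All 3 responders lay above all 7 untreated tumours for 599 of them (3.79%) and below for 522 (3.30%). Lists of genes for mammary tissue, drug response and stromal or immune cells were set against these shares and against the 14 calls. The 43 lists held 853 genes, of which 802 were measured. Of these, 2 passed, Chil3 and Elf5, both lower, and 41 lists had no member that passed. Of 771 list genes on all 10 arrays, 51 lay wholly above (6.61%) and 25 wholly below (3.24%). Lists are described by counts and medians only, beside a positive difference in 50.9% and a negative one in 49.1% of all genes.

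**Figure D4:**
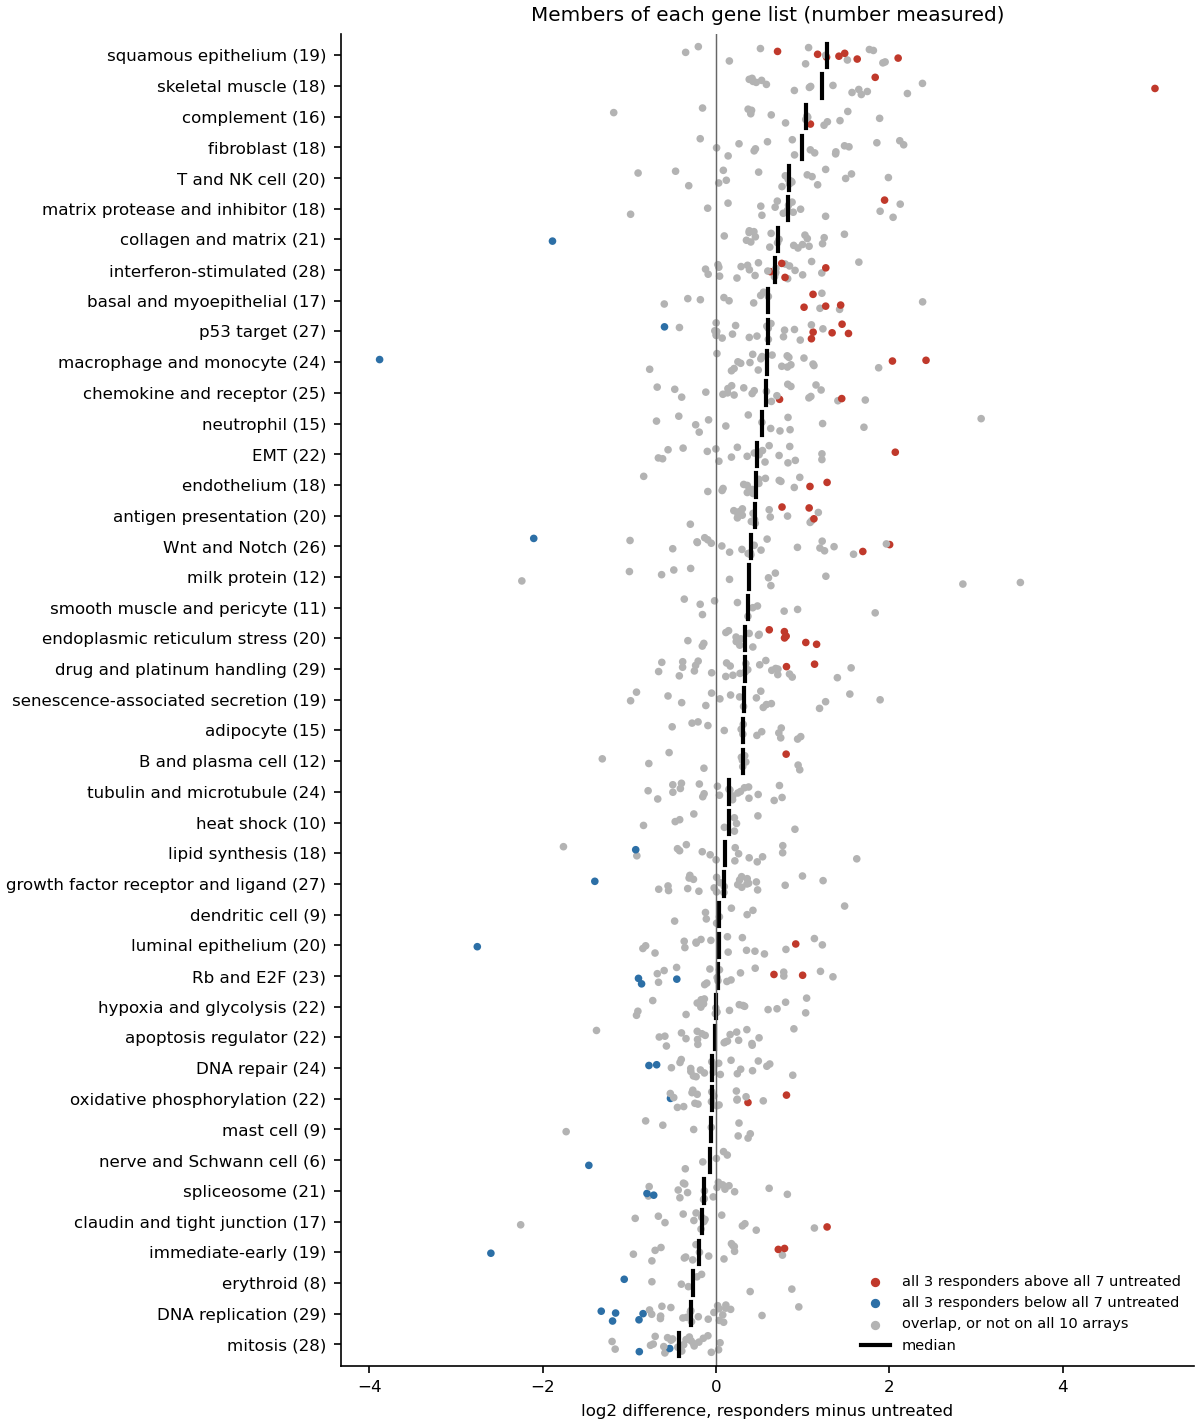
Log2 difference of responders minus untreated tumours (x axis) for each measured member of 43 gene lists, with the number measured in brackets and the median as a bar. Squamous epithelium and skeletal muscle have the highest medians at 1.28 and 1.22, mitosis the lowest at -0.42.

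The lists for dividing cells, mitosis and DNA replication, stood lower in responders, though none of their members passed alone. Smc4, which passed, is in no list. The mitosis list had a median of -0.42 with 26 of 28 measured members negative. Of the 28, 2 had all responders below all untreated tumours (3.30% over all genes). The list mean was 0.95, 1.03 and 1.32 in responders 1, 2 and 3, against 1.21, 1.53 and 1.84 as the lowest, median and highest untreated means. Responder 3 lay within the untreated range and the others below it. Cyclin A2, Ccna2, stood at 0.62, 1.25 and 0.97 in responders and between 1.30 and 2.67 in untreated tumours (-0.88 ± 0.28, adjusted p = 0.126). Bub1, whose promoter with 2 CCAAT boxes is printed above, stood at 0.78, 0.70 and 1.28 in responders and between 1.14 and 3.47 in untreated tumours (-1.16 ± 0.38, adjusted p = 0.134). Nusap1, a spindle protein that bundles microtubules, differed by -1.20 ± 0.40 (adjusted p = 0.14).

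The DNA replication list had a median of -0.29, with 19 of 29 members negative and 5 wholly below the untreated tumours (3.30% over all genes). With quantile normalization the median was -0.15 and with title style as a block -0.16. Replication genes averaged 1.41, 1.23 and 1.47 in responders 1, 2 and 3 and between 1.43 and 1.91 in untreated tumours. The helicase subunit Mcm4 stood at 1.46, 1.61 and 1.62 in responders, against a lowest, median and highest untreated value of 2.29, 2.76 and 3.65. Its difference of -1.19 ± 0.26 did not pass (adjusted p = 0.0529). Against the 2 untreated tumours of the same title style, with spots filtered anew, it was -0.24. The levels just given cannot yield that value, so it rests on a different set of spots and is not comparable. Pola1, with 1 E2F site and 1 CCAAT box in the promoter shown, stood at 0.74, 0.16 and 0.62 in responders and between 1.13 and 2.34 in untreated tumours (-1.16 ± 0.28, adjusted p = 0.0706). The groups did not overlap, and its 2 spots stood at -2.02 and -0.30. The primase subunit Prim1 likewise lay wholly below (-1.32 ± 0.32, adjusted p = 0.0706).

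Genes around the retinoblastoma protein had no common direction, with a median of 0.02 and 13 of 23 positive. Ccnd3, a D-type cyclin that activates Cdk4 and Cdk6, stood at -0.71, -0.60 and -0.50 in responders 1, 2 and 3 and between -2.09 and -1.17 in untreated tumours (1.00 ± 0.23, adjusted p = 0.0585). E2f8, a repressor of the E2F family, stood at 0.38, 0.61 and 0.71 in responders and between 1.07 and 1.86 in untreated tumours (-0.89 ± 0.21, adjusted p = 0.0633). Cdk6 differed by 1.21 ± 0.36 (adjusted p = 0.101). DNA repair genes had a median of -0.04, with the helicase Blm at -0.68 ± 0.17 and the mismatch repair gene Msh6 at -0.77 ± 0.21, both wholly below the untreated tumours and neither past the threshold. In the spliceosome list, median -0.13, the snRNP assembly factor Prpf3 stood at -0.80 ± 0.17 (adjusted p = 0.0529). The spliceosome median was -0.37 without responder 1, -0.09 without responder 2 and -0.22 within the title style. Medians near 0 changed sign with the tumours used, from -0.05 to 0.12 for the retinoblastoma genes and from -0.10 to 0.02 for DNA repair when single tumours were left out, and within the title style they were -0.10 and -0.18.

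Genes that p53 is known to activate stood higher in responders, with a median of 0.60 and 24 of 27 members positive. None passed, while 5 of 26 lay wholly above the untreated tumours (3.79% over all genes) and 1 wholly below. The list mean was 0.85, 0.60 and 0.41 in responders 1, 2 and 3 and between -0.31 and 0.18 in untreated tumours, with no overlap. Non-responder means ran from 0.23 to 1.10, a range that holds all 3 responders. Among the 43 lists, the only other with responder and untreated means wholly apart was that of endoplasmic reticulum genes, given next. Ei24 stood at 0.56, 0.79 and 0.60 in responders and between -0.78 and 0.05, median -0.47, in untreated tumours. Phlda3, which blocks Akt at the membrane, stood at 2.11, 1.46 and 1.67 in responders and between 0.09 and 0.84 in untreated tumours (1.34 ± 0.31, adjusted p = 0.0583). Trp53inp1, a stress-induced partner of p53, stood at 1.32, 1.16 and 1.08 in responders and between -1.36 and 0.77 in untreated tumours (1.53 ± 0.38, adjusted p = 0.0706). Eda2r, a death-domain receptor of the tumour necrosis factor family, differed by 1.46 ± 0.40. Trp53inp1 differed by 0.95 within the title style. Apoptosis regulators had no common direction (median -0.01, 11 of 22 positive), with the death ligand Tnfsf10 at -1.38 ± 0.49 (adjusted p = 0.166), and their median was -0.11 to 0.12 with single tumours left out and -0.10 within the title style.

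Protein folding genes of the endoplasmic reticulum had a median of 0.34, 17 of 20 positive and 6 wholly above the untreated tumours (3.79% over all genes). The list mean was 0.90, 0.64 and 0.79 in responders 1, 2 and 3 and between 0.20 and 0.60 in untreated tumours. The chaperone calreticulin, Calr, stood at 1.09, 1.82 and 1.26 in responders and between -0.18 and 0.93 in untreated tumours (1.04 ± 0.24, adjusted p = 0.0612). Pdia4, a disulfide isomerase, differed by 1.16 ± 0.31, and Herpud1, a part of the degradation machinery of that compartment, by 0.81 ± 0.22. None of the 3 passed, and none overlapped between groups. The list median was 0.54 without responder 2.

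Genes that handle platinum drugs and oxidants had a median of 0.34, with 20 of 29 positive. Glutathione reductase, Gsr, which regenerates reduced glutathione, stood at 2.30, 2.16 and 1.93 in responders 1, 2 and 3 and between 0.60 and 1.49 in untreated tumours (1.14 ± 0.24, adjusted p = 0.0529). The glutathione transferase Gstp1 also lay wholly above (0.81 ± 0.25, adjusted p = 0.114), and Gstm2 stood at 1.56 ± 0.62 with overlap. The list median was 0.20 without responder 2 and 0.54 within the title style. Tubulin and microtubule genes, the target system of paclitaxel, had a median of 0.16, with Tuba1c at -0.67 ± 0.26 (adjusted p = 0.202), and none lay wholly apart. Within the title style the tubulin median was 0.10 and Tuba1c stood at -0.24. The tubulin median was 0.10, 0.08 and 0.05 without responder 1, 2 or 3, and 0.06, 0.08 and 0.03 without untreated tumour 1, 2 or 4, each time 1 tumour left out.

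Epithelial lists differed from one another. Luminal genes had a median of 0.04 with 10 of 20 positive, and Elf5, 1 of 20, fell. Beside it the surface sialoglycoprotein gene Cd24a stood at -0.17, 0.30 and -0.44 in responders 1, 2 and 3 and between -1.92 and -0.43 in untreated tumours (1.23 ± 0.27, adjusted p = 0.0529), so responder 3 overlapped. Luminal list means were 1.05 to 1.08 in responders, inside 0.86 to 1.54 in untreated tumours. Basal and myoepithelial genes had a median of 0.60, with 14 of 17 positive and 4 of 15 wholly above (3.79% over all genes). Basal list means were 0.65, 0.23 and 0.04 in responders 1, 2 and 3 and between -1.06 and 0.26 in untreated tumours. Only responder 1 lay above that range. The basal master factor Trp63 stood at -0.22, -0.05 and -0.21 in responders and between -1.99 and -0.37 in untreated tumours (1.27 ± 0.39, adjusted p = 0.113), but its 3 spots spread from -0.01 to 2.77. The desmosomal cadherin Dsg3 differed by 1.12 ± 0.35 and lay wholly above. The basal median was 1.10 without responder 3, 1.01 without responder 2, 0.91 with the title style block and 1.04 within the title style. The luminal median was -0.07 to 0.16 with single tumours left out and 0.10 within the title style.

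Milk protein genes had a median of 0.38 over 12 members and went both ways. The beta casein gene Csn2 stood at 5.17 and 0.96 in responders 1 and 2 and was not measured in responder 3, and it lay between -2.20 and 1.35 in the 5 untreated tumours that had a value (3.51 ± 0.95, adjusted p = 0.0926). Kappa casein, Csn3, stood at 2.57, 0.90 and 0.93 in responders and between 1.07 and 5.89 in untreated tumours (-2.24 ± 0.94, adjusted p = 0.244). Responder 1 was the highest of its group for both caseins, and Csn3 differed by -3.67 within the title style. The milk protein median was 0.07 without responder 3, 0.21 without untreated tumour 6, 0.02 with the title style block and 0.07 within the title style.

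Genes of cornified squamous epithelium had the highest list median, 1.28, with 17 of 19 positive. Of 17 on all 10 arrays, 7 lay wholly above the untreated tumours (3.79% over all genes). None passed. The list mean was -0.73, -1.63 and -0.97 in responders 1, 2 and 3, against -3.37, -2.14 and -1.61 as the lowest, median and highest untreated means. Responder 2 lay just inside the untreated range and the others above it. The crosslinking enzyme transglutaminase 1, Tgm1, stood at 0.91, 0.29 and 0.55 in responders and below 0 in all 7 untreated tumours, the lowest at -1.78 (1.42 ± 0.34, adjusted p = 0.0706). The suprabasal keratin Krt10 stood at -0.83, -3.74 and -1.39 in responders and between -4.99 and -3.05 in untreated tumours (1.93 ± 0.50, adjusted p = 0.0725). Loricrin, Lor, the main protein of the cornified envelope, differed by 1.95 ± 0.61 with overlap. Against the 2 untreated tumours of the same title style the squamous median was 1.68.

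Skeletal muscle genes had a median of 1.22, and all 18 were positive. Their mean was -1.98, -1.67 and -3.27 in responders 1, 2 and 3, against -4.89, -3.74 and -2.52 as the lowest, median and highest untreated means. Responders 1 and 2 lay above every untreated tumour, and responder 3 within their range. The fast myosin heavy chain Myh4 stood at 1.41, 2.65 and -1.87 in responders and between -6.48 and -1.93 in untreated tumours (5.06 ± 1.10, adjusted p = 0.0529). Mybpc2, a fast-fibre myosin binding protein, differed by 1.84 ± 0.39 (adjusted p = 0.0529), and the muscle enolase Eno3 by 2.38 ± 0.54 (adjusted p = 0.0568). Of the 18, 2 lay wholly above (3.79% over all genes). Adipocyte genes had a median of 0.32, with responder list means of -3.19, -1.61 and -3.74 inside the untreated range of -4.10 to -0.69. The adipocyte median was -0.22 without responder 2, 0.62 without responder 1, 0.94 without responder 3, 0.58 without untreated tumour 5 and 0.93 without untreated tumour 7, and within the title style it was 1.29. The part of muscle and fat markers in the other differences was not tested.

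**Figure D5:**
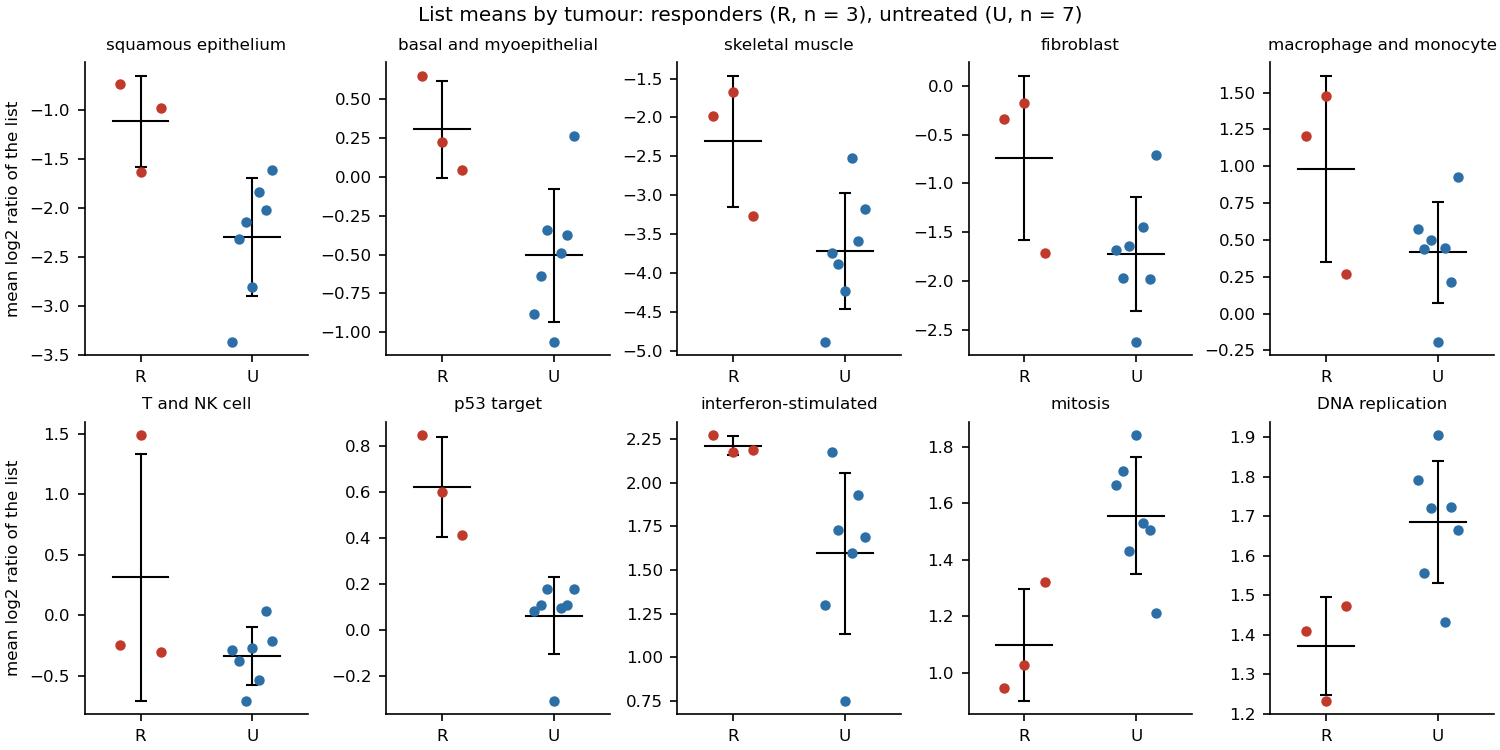
Mean log2 ratio of the members of 10 gene lists (y axis, own scale per list), 1 point per tumour, with responders (R, n = 3) left of untreated tumours (U, n = 7), and bars for mean ± SD. The p53 target panel shows no overlap between groups, while in the skeletal muscle, fibroblast and macrophage panels 1 responder, number 3, lies among the untreated tumours.

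Fibroblast genes had a median of 1.00 with 17 of 18 positive. Their mean was -0.33 and -0.17 in responders 1 and 2 but -1.71 in responder 3, against -2.62, -1.68 and -0.70 as the lowest, median and highest untreated means. Prrx2, a homeobox gene of connective tissue, stood at 1.29, -0.83 and 0.74 in responders and between -3.04 and -0.70 in untreated tumours (2.12 ± 0.52, adjusted p = 0.0706). The matrix glycoproteins Fbln1 and Efemp1 differed by 2.17 ± 0.66 and 1.86 ± 0.60 and did not pass. The fibroblast median was 1.68 without responder 3, 0.44 without responder 1 and 0.67 without responder 2.

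Collagen and matrix genes had a median of 0.71, with 20 of 21 positive. The exception was Col11a1, a fibrillar collagen of cartilage and some tumour stroma, at -2.90, -1.93 and -2.46 in responders 1, 2 and 3 and between -1.66 and 1.87 in untreated tumours (-1.89 ± 0.49, adjusted p = 0.0725). All 3 responders lay below all untreated tumours, and its 4 spots were all negative. Matrix proteases and their inhibitors had a median of 0.83, with Timp3 at 2.13 ± 0.60 and the gelatinase Mmp2 at 2.04 ± 0.64. The collagen median was 1.09 without responder 3 and 0.38 without responder 1. The collagen list mean was -0.18, -0.33 and -1.41 in responders 1, 2 and 3 and between -2.02 and -0.79 in untreated tumours. Responder 3 thus lay within the untreated range. Endothelial genes had a median of 0.46 with 16 of 18 positive. Their mean was -0.85, -0.71 and -0.99 in responders 1, 2 and 3, all inside the untreated range of -1.76 to -0.69. Eng, a co-receptor for transforming growth factor beta on endothelium, stood at -0.31, 0.37 and -0.31 in responders and between -1.63 and -0.43 in untreated tumours (1.08 ± 0.27, adjusted p = 0.0706). The tight junction gene Cldn5 lay wholly above as well (1.28 ± 0.40, adjusted p = 0.119).

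Macrophage and monocyte genes had a median of 0.59 with 22 of 24 positive, while Chil3, 1 of the 24, fell. The list mean was 1.20, 1.48 and 0.27 in responders 1, 2 and 3 and between -0.19 and 0.93 in untreated tumours. Its median was 0.33 without responder 2 and 1.05 without responder 3. Responder 3 had the lowest Chil3 level and a macrophage mean inside the untreated range, and responders 1 and 2 had low Chil3 with macrophage means above every untreated tumour. The part of the macrophage share in the Chil3 difference was not tested. Ly6c2, a surface antigen of inflammatory monocytes, stood at 1.98, 2.30 and 1.92 in responders and between -1.30 and 1.30 in untreated tumours (2.04 ± 0.47, adjusted p = 0.0631). Arg1, the arginase of alternatively activated macrophages, is the other of the 2 members wholly above (3.79% over all genes). It was picked out after its values were seen. It stood at 1.89, 0.49 and -0.47 in responders and between -4.27 and -0.60 in untreated tumours (2.42 ± 0.64). The lysozyme Lyz1 stood at 1.88 ± 0.49 and the IgG receptor Fcgr3 at 1.13 ± 0.30, both with overlap. Close relatives of Ly6c2 and Lyz1 exist in the mouse, and cross-hybridisation to them was not tested.

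Complement genes had a median of 1.04 with 14 of 16 positive. Their mean was 0.81, 1.00 and -0.33 in responders 1, 2 and 3 and between -1.11 and 0.37 in untreated tumours, so responder 3 lay within that range. The C1q chain C1qb stood at 1.26, 2.15 and 1.10 in responders 1, 2 and 3 and between -0.23 and 0.95 in untreated tumours (1.09 ± 0.32, adjusted p = 0.0944), and C1qa differed by 1.25 ± 0.39 with overlap, and by 0.70 within the title style. Neutrophil genes had a median of 0.53, led by the stefin Stfa3 (3.06 ± 0.75, adjusted p = 0.0706), whose responder values of -2.07, -5.36 and -2.57 overlapped an untreated range of -8.82 to -4.74. In the chemokine list, median 0.58, Ccl6 lay wholly above (1.45 ± 0.42, adjusted p = 0.0939) and Ccl3 stood at 1.41 ± 0.45. The chemokine median was 0.32 without responder 2 and 0.33 without untreated tumour 4.

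T and NK cell genes had a median of 0.84, but 1 responder carried it. The list mean was -0.25, 1.49 and -0.30 in responders 1, 2 and 3 and between -0.71 and 0.04 in untreated tumours. Without responder 2 the median was 0.16, and with the title style block it was 0.52. The granzyme gene Gzmb stood at 1.16, 3.28 and 0.29 in responders and between -0.36 and 0.71 in 6 untreated tumours (1.50 ± 0.57, adjusted p = 0.193). Klrd1, a receptor chain of NK cells, stood at 1.68, 3.24 and 0.02 in responders and between -1.70 and 0.78 in untreated tumours (1.56 ± 0.67, adjusted p = 0.247).

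Interferon-stimulated genes were closer among responders, with a median of 0.68 and 26 of 28 positive. The list mean was 2.28, 2.18 and 2.19 in responders 1, 2 and 3, against 0.75, 1.69 and 2.18 as the lowest, median and highest untreated means. Responder 2 equalled the highest untreated tumour, number 2, to 2 decimals, and the other responders lay above it. Non-responder means ran from 1.81 to 2.75, a range that holds all 3 responders. The antiviral gene Ifit3 stood at 1.46, 0.98 and 0.95 in responders and between -0.62 and 0.85 in untreated tumours (0.80 ± 0.26, adjusted p = 0.134). The chemokine Cxcl10 stood at 4.16, 5.45 and 5.20 in responders and between 1.90 and 5.31 in untreated tumours (1.65 ± 0.56, adjusted p = 0.144). Antigen presentation genes had a median of 0.45 with 19 of 20 positive. The immunoproteasome subunit Psmb10 stood at 1.36, 2.30 and 0.86 in responders and between 0.20 and 0.80 in untreated tumours (1.08 ± 0.27, adjusted p = 0.0706). The antigen presentation median was 0.27 without responder 2 and 0.30 within the title style.

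Single genes of the remaining lists lay far apart without passing. The immediate-early factor Egr2 stood at 1.81, 0.90 and 1.79 in responders 1, 2 and 3 and between 2.30 and 4.83 in untreated tumours (-2.60 ± 0.59, adjusted p = 0.0583), with 10 spots from -2.76 to -2.43. The Notch target Hey1 differed by -2.10 ± 0.69 and the Wnt ligand Wnt10b by 1.69 ± 0.55, both without overlap. Vldlr, a lipoprotein receptor, stood at -1.76 ± 0.40 (adjusted p = 0.0583) with overlap, and the isoprenoid enzyme Fdps at -0.93 ± 0.23 without. The neural crest factor Sox10 stood at -0.02, 0.49 and 0.69 in responders and between 0.83 and 2.47 in untreated tumours (-1.47 ± 0.50, adjusted p = 0.147). Igfbp5, which binds insulin-like growth factors, lay wholly below (-1.40 ± 0.44, adjusted p = 0.119), and the secreted EMT-list gene Tgfbi wholly above (2.07 ± 0.58, adjusted p = 0.09). Hypoxia and glycolysis genes had a median of -0.00408, and oxidative phosphorylation genes one of -0.05. With single tumours left out these medians were -0.19 to 0.10 and -0.14 to -0.02, and the hypoxia median was -0.07 within the title style.

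Whether the responder difference departs from that of treated non-responders was tested as responders minus non-responders in the same fit, in which the untreated tumours cancel. In limma, 0 of 18553 genes passed, with 1174 at an unadjusted p under 0.05 (6.33%) and a smallest adjusted p of 0.316. None of the 14 genes passed there (adjusted p between 0.411 and 0.947). In non-responders minus untreated tumours, from the same fit with 9 non-responders, 283 genes passed in limma (1.53%). Of the 14, Trim33 (-1.03), Zfp639 (-0.83), Ctsd (1.05), Tmem132a (0.97), Smc4 (-1.12), Chil3 (-1.92) and Slc35f6 (0.62) passed there too. Their limma adjusted p lay between 0.0063 and 0.0267. The others did not pass, with Elf5 at -0.82 (adjusted p = 0.231) and Gucy1b1 at -0.21 (adjusted p = 0.602). Both contrasts share the untreated tumours, against which the 14 were chosen, so passing in both is not independent. Chil3 had a lowest, median and highest non-responder value of -1.41, -0.57 and 0.47, so all 3 responders lay below all 9 non-responders (responders minus non-responders -1.96 ± 0.50, adjusted p = 0.528). Elf5 ran from 0.42 to 2.14 in non-responders (-1.93 ± 0.47, adjusted p = 0.528), again with every responder below. Chil3 and Elf5 were chosen for low responder values, and the share of all genes wholly apart from non-responders is not given here. Tpm1 ran from -2.98 to -1.93 in non-responders, which overlaps responder 3 at -1.95 (0.95 ± 0.28, adjusted p = 0.6). For Zfp639 the non-responder range of -1.27 to -0.77 held 2 of the 3 responders, and the difference was -0.16 ± 0.18 (adjusted p = 0.947). List medians of responders minus non-responders were 0.12 for p53 targets, -0.07 for interferon-stimulated genes and -0.01 for antigen presentation. They were 0.01 for matrix proteases and inhibitors and -0.11 for neutrophil genes. Skeletal muscle stood at 0.92, squamous epithelium at 0.64, T and NK cells at 0.39 and mitosis at -0.28. No list gene passed in this contrast.

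The microtubule-associated gene Eml2 had the smallest p in that contrast. It stood at -0.23, -1.47 and -1.29 in responders 1, 2 and 3, against 0.20, 0.53 and 1.27 as the lowest, median and highest non-responder values (-1.62 ± 0.28, adjusted p = 0.316). Untreated tumours ran from -0.03 to 1.07, so the responders lay below both other groups. Paqr3 ran from -0.09 to 0.88 in non-responders (1.38 ± 0.26, adjusted p = 0.38), and Gucy1b1 from -2.45 to -1.12 (-1.23 ± 0.25, adjusted p = 0.411). The tryptophan dioxygenase gene Tdo2 stood at -1.81, -1.54 and -4.41 in responders and between -0.95 and 0.52 in non-responders (-2.24 ± 0.47). The filament-domain gene Iffo2 differed by 1.71 ± 0.38 and Cuzd1, a gene of secretory epithelia, by -1.78 ± 0.38. Of the 10 genes with the smallest p in this contrast, 4 are predicted, unnamed or olfactory receptor genes. Responder 3 and non-responder 1, the 2 tumours of one mouse, correlated at 0.725, within the 0.464 to 0.799 of other pairs of arrays. These correlations were taken over all 45220 spots, with exact zeros kept as values. Without responder 1, 2 or 3, in turn, 12, 7 and 1 genes passed between responders and non-responders.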

How the data were processed

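RNA of 19 tumours was hybridised on 2-colour arrays of 45220 spots, per the labels with tumour RNA in Cy5 and whole-mouse reference RNA in Cy3 on every array, so no dye was swapped. The deposited values are 1 log2 ratio per spot and array, as far as their range shows. Scanner, background correction, normalization, log base, ratio direction and what an exact 0 means: for none of these does a source used here give an answer, and signal over background is not analysed here. Between 1.63% and 9.10% of spots per array were listed at exactly 0 and were taken as not measured. The share was 1.63%, 5.5% and 6.3% in responders 1, 2 and 3, and 1.71% and 6.08% in untreated tumours 1 and 2. In untreated tumours 3 to 7, which have the other title style, it was higher, at 7.47% to 9.10%. Spots that the platform annotation ties to 1 gene (33653) were kept where at least 70% of arrays had a value, then averaged within each gene (18553 genes). Responders, non-responders and untreated tumours were fitted as 3 groups by lmFit and eBayes of limma 3.58.1 (R 4.3.3), and two-sided p-values were adjusted after Benjamini-Hochberg across every gene tested, with 0.05 as threshold. The method was run on simulated data whose added differences were larger than those of most genes that passed. That run therefore does not bear on calls of the size reported. Where a gene lacks a value on an array, that array is missing from its fit.

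The named genes were the 12 highest and the 12 lowest differences among genes that passed without overlap on all 10 arrays, filled up by smallest p. From each list came the members that passed and up to 3 further ones with the smallest p, and from responders minus non-responders the 10 with the smallest p. Predicted genes and olfactory receptors were counted but not named. The members, lists and rules were chosen with earlier results of these data known. Alternatives covered the zeros, filter, spot choice, normalization, arrays in the fit, title style, variance model and each tumour left out. The number of arrays limits the precision. Replicates are separate tumours, numbered in accession order. Lists were not given set tests.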

Additional observations from a re-analysis of the deposited data

Results flagged for a closer look

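Of 67 groups of 7 untreated tumours examined for a lone extreme value, 9 had 1, where chance gives about 1 in 20. In 4 of them the tumour was untreated 4, at the low end each time. Its list means were -0.308 for p53 targets, -0.994 for matrix proteases and inhibitors, 0.0825 for chemokines and receptors, and 0.355 for senescence-associated secretion. Untreated 5 had the lowest mean for claudin and tight junction genes (0.570) and the highest for tubulin and microtubule genes (-0.287). Untreated 7 was highest for Ei24 (0.049) and for adipocyte genes (-0.693), and untreated 1 was highest for DNA repair genes (1.03). Without untreated 4, 3 genes passed between responders and untreated tumours. No cause was tested.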

How the results depend on the processing

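The sign of the named genes is largely set by their choice and is not used here. The number of genes that passed between responders and untreated tumours, 14 in the fit reported, moved widely with the settings. It was 39 with zeros kept as values (23 higher, 16 lower), 366 with only spots measured on every array (204 and 162), 569 with array weights (309 and 260), 47 with a trended robust variance, and 45 with quantile normalization (25 higher and 20 lower, beside 6 and 8). It was 13 with no filter, 12 with median centring, and 17 with the most variable spot, of which 8 were among the 14. It was 7 without the non-responder of the shared mouse, 1 with title style as a block, and 0 with only the 10 arrays or only hyphen-titled arrays. Leaving out single tumours gave 3 to 396. List genes that passed, 2 in the fit reported, numbered 39 with spots on every array, 4 with the most variable spot, 6 with quantile normalization, 43 with array weights, 1 with the title style block, 0 with only the 10 arrays and with hyphen-titled arrays, and 1 to 30 with single tumours left out. Of the named genes, 14 in the fit reported, 24 passed with zeros kept, spots on every array, array weights or the trended variance, 9 with the most variable spot, 7 without the non-responder of the shared mouse, 1 with the block, 0 with only the 10 arrays or hyphen-titled arrays, and 3 to 24 with single tumours left out. Between responders and non-responders the count was 0 to 12 with single tumours left out and 0 in the other alternatives that hold non-responders. The genes whose groups do not overlap numbered 1013 to 1203 (1121 in the fit reported). The medians of the mitosis, DNA replication, p53 target, squamous, skeletal muscle, fibroblast, macrophage and interferon lists kept their sign in 22 of 22 alternatives, though that of DNA replication genes (-0.29) was -0.15 with quantile normalization and -0.16 with the block, while that of milk protein genes was -0.05 with spots on every array. The cause of these shifts was not tested, beyond the fewer arrays in some fits. No paired analysis was possible because the replicate numbers were given in accession order and pair no tumours. The number of arrays limits the precision, and signal over background is not analysed here.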
